A study of Homo sapiens with 30 samples.

Results

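The RNA levels of 10 target genes of the WNT/β-catenin pathway were examined in RNA-Seq of cells treated with Omomyc, a dominant-negative miniprotein derived from MYC. The 10 genes, AXIN2, NKD1, NOTUM, RNF43, ZNRF3, LGR5, TCF7, LEF1, ASCL2 and SP5, were taken by name from the 57992 genes of the deposited table, where each was found by its Ensembl identifier. The table held 30 libraries in 10 groups of 3, 15 from each of 2 lines, HCT116, a colon carcinoma line labelled as having stabilized MYC, and Ramos, a Burkitt's lymphoma line labelled with a MYC translocation. HCT116 cells were untreated, or received a lower dose of Omomyc (labelled 2 μM, 2.5 μM in the study's methods) or 10 μM, for 6 or 24 h. The methods state that Omomyc was given to HCT116 cells with ProteoJuice, a protein transfection reagent, and do not make clear whether untreated cells received the reagent. Ramos cells were untreated or received 0.5 or 2.5 μM Omomyc for 6 or 24 h, and the methods name no reagent for them. The libraries titled 24 h carry a tag of 4 h, and the title was used. Untreated libraries carry no time, so each line has 1 set of 3 controls that all of its treated groups share. No source says whether the 3 libraries of a group came from separate cultures, so p-values measure only the spread between these libraries, which may be technical.

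In the canonical WNT pathway, a WNT ligand binds a Frizzled receptor and an LRP co-receptor. The destruction complex, which otherwise marks β-catenin for degradation, is then held back. β-Catenin accumulates, enters the nucleus and activates genes with transcription factors of the TCF/LEF family. Many of the activated genes encode inhibitors of the pathway itself, and their RNA is widely used as a readout of pathway activity. In intestinal epithelium the pathway maintains the crypt stem cells, for which LGR5 and ASCL2 are known markers. Most colon carcinomas carry mutations that activate the pathway, and HCT116 cells carry a mutation of CTNNB1, the gene of β-catenin, that stabilizes the protein.

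Values are RPKM, read counts scaled for gene length and for the mapped reads of a library, so levels can be compared between genes. Between libraries, RPKM does not correct for differences in composition, so differences were also computed under other scalings. How many reads each value rests on is unknown. Differences are given on the scale of log2(RPKM + 0.5), as treated minus untreated, with the SE of a limma fit across all genes. This scale understates the change of genes with low RPKM. A gene was called when its p-value, adjusted over all genes tested, was under 0.05. All 5 epithelial markers examined were at 1 RPKM or more in every HCT116 library and all 5 B-cell markers in every Ramos library, and each set was under 1 RPKM in every library of the other line. Of the 4 fibroblast and 5 T-cell markers, COL1A1 was at 1 RPKM or more in HCT116 cells and the others were under 1 RPKM in both lines. The summed RPKM and the share taken by the 10 most abundant genes differed between HCT116 groups. That share was 23.8 to 31.4% in untreated libraries, 35.8 to 54.2% at 6 h and 28.5 to 37.1% at 24 h. The third library at 10 μM and 6 h stood apart, with a summed RPKM of 1051041 against 791845 and 795720 in its companions and correlations with them of 0.977 and 0.973, the lowest within any group. In bulk RNA, fewer cells of a type and less RNA per cell cannot be told apart.

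In untreated HCT116 cells, 7 of the 10 genes were above 0.5 RPKM and 3 were near 0. RNF43 was the most abundant at 36.0 ± 1.82 RPKM (SD, n = 3), followed by AXIN2 at 19.7 ± 1.19, TCF7 at 7.89 ± 0.956, NOTUM at 7.73 ± 0.57, ZNRF3 at 6.22 ± 0.381, NKD1 at 2.49 ± 0.194 and SP5 at 0.97 ± 0.106. Neighbours in this order did not overlap between libraries, except TCF7 and NOTUM, which did. LGR5 reached at most 0.0437 RPKM in the untreated libraries, ASCL2 at most 0.0138, and LEF1 was listed at 0 in each of them. Over all 15 HCT116 libraries the highest value of these 3 genes was 0.0666, for LEF1. The stem cell markers LGR5 and ASCL2 were thus at or near 0 in this colon carcinoma line under every condition. None of the 3 passed the filter on low values (a mean of 0.5 RPKM over the libraries compared) in any comparison of HCT116 groups.

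In untreated Ramos cells the order was different. LEF1 led at 25.1 ± 1.66 RPKM, followed by RNF43 at 11.6 ± 1.07, ZNRF3 at 2.22 ± 0.224 and AXIN2 at 0.403 ± 0.136, and none of these neighbours overlapped. The other 6 genes reached at most 0.106 RPKM in untreated Ramos libraries. Between the untreated lines, RNF43 was higher in HCT116 cells by 1.60 (SE 0.076, adjusted p = 8.74e-07) and ZNRF3 by 1.31 (SE 0.0885, adjusted p = 6.08e-06). Of the 7 members that passed the filter here, 6 were called higher and 1, LEF1, lower in HCT116 cells, beside 45.7% of all 15647 genes tested called higher and 39% lower. AXIN2, NKD1, NOTUM, TCF7 and LEF1 passed the filter only through the line in which they were higher, so their calls are not read as a result and only RNF43 and ZNRF3 were compared between the lines. SP5 did not pass it and reached 0.0189 RPKM at most in Ramos libraries.

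**Figure D1:**
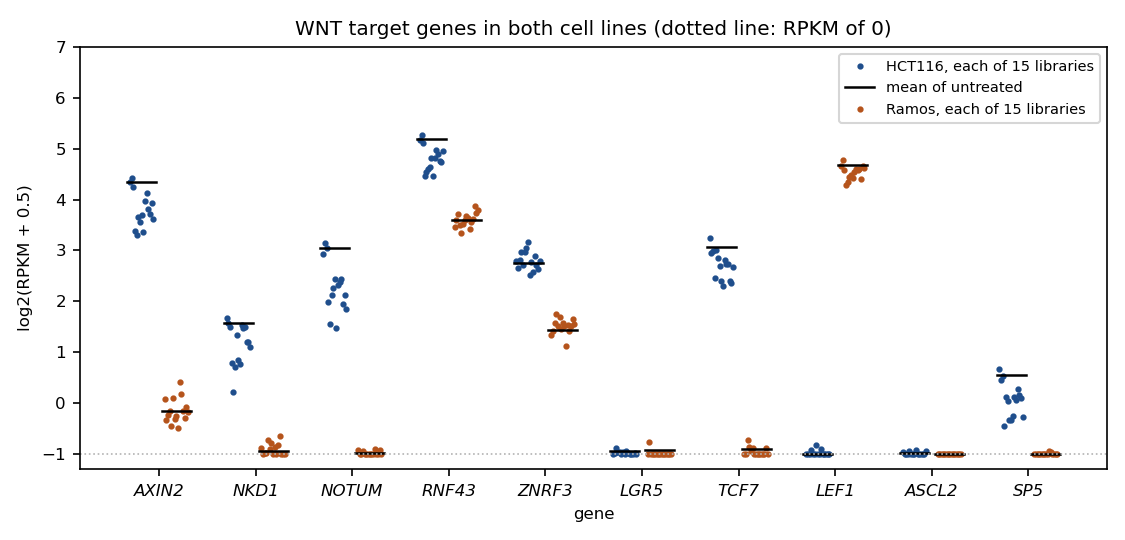
Level of each of the 10 genes in both lines, as log2(RPKM + 0.5) on the vertical axis. Each point is 1 of the 15 libraries of a line, treated ones included, black lines are means of the 3 untreated libraries and the dotted line is an RPKM of 0. LEF1 is abundant in Ramos cells and near 0 in HCT116 cells, NKD1, NOTUM and TCF7 are near 0 in Ramos cells only, AXIN2 is low in Ramos cells, SP5 is low in HCT116 cells and near 0 in Ramos cells, and LGR5 and ASCL2 lie near 0 in both.

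In HCT116 cells, most of the measured WNT target genes were lower after Omomyc at each dose and time. At the lower dose for 6 h, 5 of 7 fell (AXIN2, NKD1, NOTUM, RNF43 and SP5) and 0 rose, beside 31.8% of 14550 genes called lower and 15.5% called higher. At 10 μM for 6 h, 6 of 7 fell, with TCF7 added, and 0 rose, beside 21.2% of 14785 genes lower and 8.84% higher. At the lower dose for 24 h, 4 of 7 fell (AXIN2, NOTUM, RNF43 and TCF7) and 0 rose, beside 10.8% of 14886 genes lower and 16.6% higher. At 10 μM for 24 h, 6 of 7 fell (AXIN2, NKD1, NOTUM, RNF43, TCF7 and SP5) and 0 rose, beside 15.7% of 14827 genes lower and 19.5% higher. The median difference of the 7 genes was -0.66, -0.60, -0.30 and -0.56 in this order, against -0.12, -0.11, 0.041 and 0.024 over all genes tested. These 4 comparisons share the untreated libraries. At 10 μM for 6 h the count was 2 without the untreated replicate 1 or 2 and 3 without the untreated replicate 3. Omission of single libraries there gave 1813 to 7565 called genes over the whole table, in place of 4439. At the lower dose for 24 h the member count was 0 in a fit of all HCT116 groups, which share 1 estimate of the spread. That fit called 1113 genes, in place of 4071. SP5 reached at most 0.709 RPKM in treated libraries. At 6 h, with treated means of 0.4447 and 0.3081 RPKM, it passed the filter only through the untreated libraries. At 24 h its treated means, 0.6085 and 0.5033 RPKM, were themselves near the filter of 0.5 RPKM. The SP5 values are therefore not taken as support for these counts and medians, which include it. The medians of -0.66 at the lower dose for 6 h and -0.56 at 10 μM for 24 h are the SP5 differences themselves.

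The background depended on the scaling, mostly at 6 h. With libraries scaled on the median ratio of genes, the share of genes called lower was 20.9%, 15.9%, 15.1% and 18.2%, and the members called lower were 5, 5, 4 and 6. With libraries scaled to an equal sum of RPKM, 58.8%, 46.4%, 20% and 26.3% of genes were lower and the median of all genes shifted to -0.42, -0.56, -0.10 and -0.14. The median of the 7 members was then -0.99, -1.05, -0.45 and -0.67, with SP5 included in these medians and in the counts. No scaling turned the direction of a called member. Without the third library at 10 μM and 6 h, 7 of 7 members were called at that dose and time, 6 lower and ZNRF3 higher, and the total of genes called went from 4439 to 7565.

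**Figure D2:**
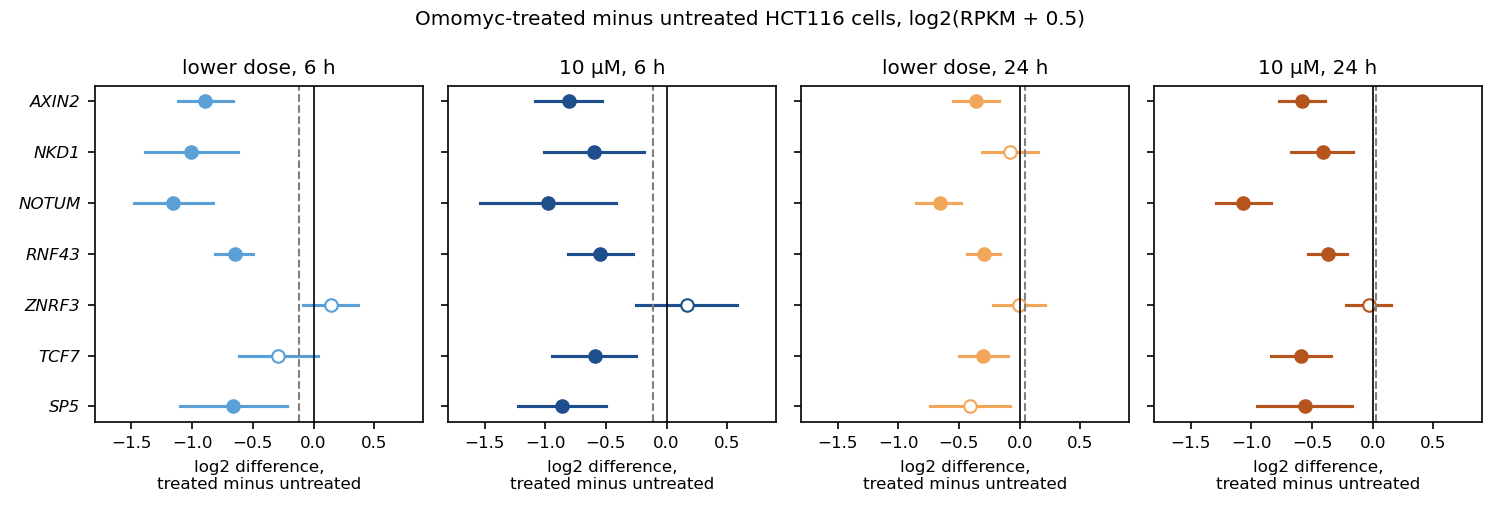
Difference between treated and untreated HCT116 cells for the 7 measured members, on the scale of log2(RPKM + 0.5). Points are limma estimates from 3 libraries against 3, bars are 95% confidence intervals, filled points were called at an adjusted p under 0.05 and the dashed line is the median of all genes tested. Every filled point lies to the left of the dashed line, and ZNRF3 is open in all 4 panels.

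AXIN2 encodes a scaffold of the destruction complex and is a common reporter of β-catenin activity (chr17:65528563-65561647, minus strand, GRCh38). It measured 19.8, 20.9 and 18.5 RPKM in the untreated HCT116 libraries. At 6 h it measured 9.99, 9.33 and 12.2 RPKM at the lower dose and 11.3, 12.4 and 9.72 at 10 μM. At 24 h it measured 15.2, 17.1 and 13.6 RPKM at the lower dose and 12.6, 14.7 and 11.9 at 10 μM. Every treated library was under every untreated one. The difference was -0.89 (SE 0.102, adjusted p = 0.000196) and -0.80 (SE 0.118, adjusted p = 0.00342) at 6 h. It was -0.36 (SE 0.0844, adjusted p = 0.0143) and -0.58 (SE 0.0844, adjusted p = 0.000846) at 24 h. The group means were 53.2%, 56.4%, 77.5% and 66.2% of the untreated mean. The call at the lower dose and 24 h was lost when all HCT116 groups shared a fit (adjusted p = 0.0825) and without a filter (adjusted p = 0.0672).

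For each gene and dose whose treated and untreated libraries did not overlap, the exact two-sided permutation test gave p = 0.1, the smallest that 3 libraries against 3 allow, so single-gene calls rest on the limma fit.

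NKD1, which binds Dishevelled and dampens the signal (chr16:50548330-50649249, plus strand), measured 2.70, 2.46 and 2.32 RPKM in untreated HCT116 libraries. Treated for 6 h, cells had 1.22, 0.667 and 1.14 RPKM at the lower dose and 2.01, 1.31 and 1.19 at 10 μM. Treated for 24 h, they had 2.41, 2.27 and 2.30 RPKM at the lower dose and 1.79, 1.80 and 1.65 at 10 μM. The lower dose at 24 h overlapped the untreated libraries, and the other groups lay below them. The difference was -1.01 (SE 0.171, adjusted p = 0.00132) and -0.60 (SE 0.178, adjusted p = 0.0395) at 6 h. The 24 h difference was -0.08 (SE 0.102, adjusted p = 0.598), which was not called, and -0.41 (SE 0.113, adjusted p = 0.0185). The call at 10 μM and 6 h did not hold when any untreated library was left out (adjusted p from 0.0966 to 0.138), without the treated replicate 2 (adjusted p = 0.0936) or with median-ratio scaling (adjusted p = 0.0518). That at 10 μM and 24 h did not hold without the untreated replicate 1 (adjusted p = 0.08) or 2 (adjusted p = 0.0511) or in the fit of all groups (adjusted p = 0.0975).

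NOTUM encodes a secreted enzyme that inactivates WNT ligands by removing their lipid (chr17:81952507-81961840, minus strand). It measured 7.16, 8.30 and 7.73 RPKM in the untreated HCT116 libraries. After 6 h the values were 3.46, 2.43 and 3.83 RPKM at the lower dose and 4.28, 4.95 and 2.28 at 10 μM. After 24 h they were 4.48, 4.69 and 4.89 RPKM at the lower dose and 3.37, 3.84 and 3.09 at 10 μM. All 12 treated libraries were under all untreated ones. The difference was -1.16 (SE 0.146, adjusted p = 0.000306) and -0.98 (SE 0.24, adjusted p = 0.0206) at 6 h, and -0.66 (SE 0.0815, adjusted p = 0.000998) and -1.07 (SE 0.0994, adjusted p = 8.61e-05) at 24 h. The means were 41.9%, 49.7%, 60.6% and 44.4% of the untreated mean. At 10 μM and 6 h the call was lost when any single untreated library was left out (adjusted p from 0.0633 to 0.078), and at the lower dose and 24 h in the fit of all groups (adjusted p = 0.0586). Without the third library at 10 μM and 6 h the difference was -0.69 (adjusted p = 0.00109).

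RNF43 and ZNRF3 encode related membrane ubiquitin ligases that remove Frizzled receptors from the cell surface. RNF43 (chr17:58352500-58417595, minus strand) measured 35.7, 37.9 and 34.3 RPKM in the untreated HCT116 libraries. The 6 h libraries had 21.7, 22.7 and 23.7 RPKM at the lower dose and 24.6, 27.6 and 21.7 at 10 μM. The 24 h libraries had 27.7, 31.0 and 29.1 RPKM at the lower dose and 26.7, 26.1 and 30.6 at 10 μM. No treated library reached an untreated one. The difference was -0.65 (SE 0.0679, adjusted p = 0.000124) and -0.55 (SE 0.115, adjusted p = 0.012) at 6 h, and -0.29 (SE 0.0593, adjusted p = 0.00792) and -0.37 (SE 0.0698, adjusted p = 0.00326) at 24 h. The call at 10 μM and 6 h was lost without the untreated replicate 1 (adjusted p = 0.0586) or 2 (adjusted p = 0.063), and that at the lower dose and 24 h in the fit of all groups (adjusted p = 0.0682).

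ZNRF3 (chr22:28883592-29057487, plus strand) was not called in any of the 4 comparisons. It measured 6.41, 5.78 and 6.47 RPKM in untreated HCT116 libraries. Its 6 h values were 7.38, 6.08 and 7.36 RPKM at the lower dose and 7.82, 8.46 and 5.23 at 10 μM. Its 24 h values were 6.29, 5.47 and 6.88 RPKM at the lower dose and 6.06, 5.72 and 6.41 at 10 μM. Each treated group overlapped the untreated libraries. The difference at 6 h was 0.14 (95% confidence interval -0.087 to 0.37, adjusted p = 0.275) and 0.17 (-0.25 to 0.58, adjusted p = 0.506). The 24 h difference was -0.0057 (-0.22 to 0.21, adjusted p = 0.971) and -0.034 (-0.22 to 0.15, adjusted p = 0.777). The 6 h values depended on scaling. The lower dose gave a difference of 0.28 with median-ratio scaling (adjusted p = 0.0381), 0.32 with quantile normalization (adjusted p = 0.0196) and -0.17 with an equal sum (adjusted p = 0.309). At 10 μM it was 0.36 without the third library (adjusted p = 0.012) and -0.29 with an equal sum (adjusted p = 0.382).

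**Figure D3:**
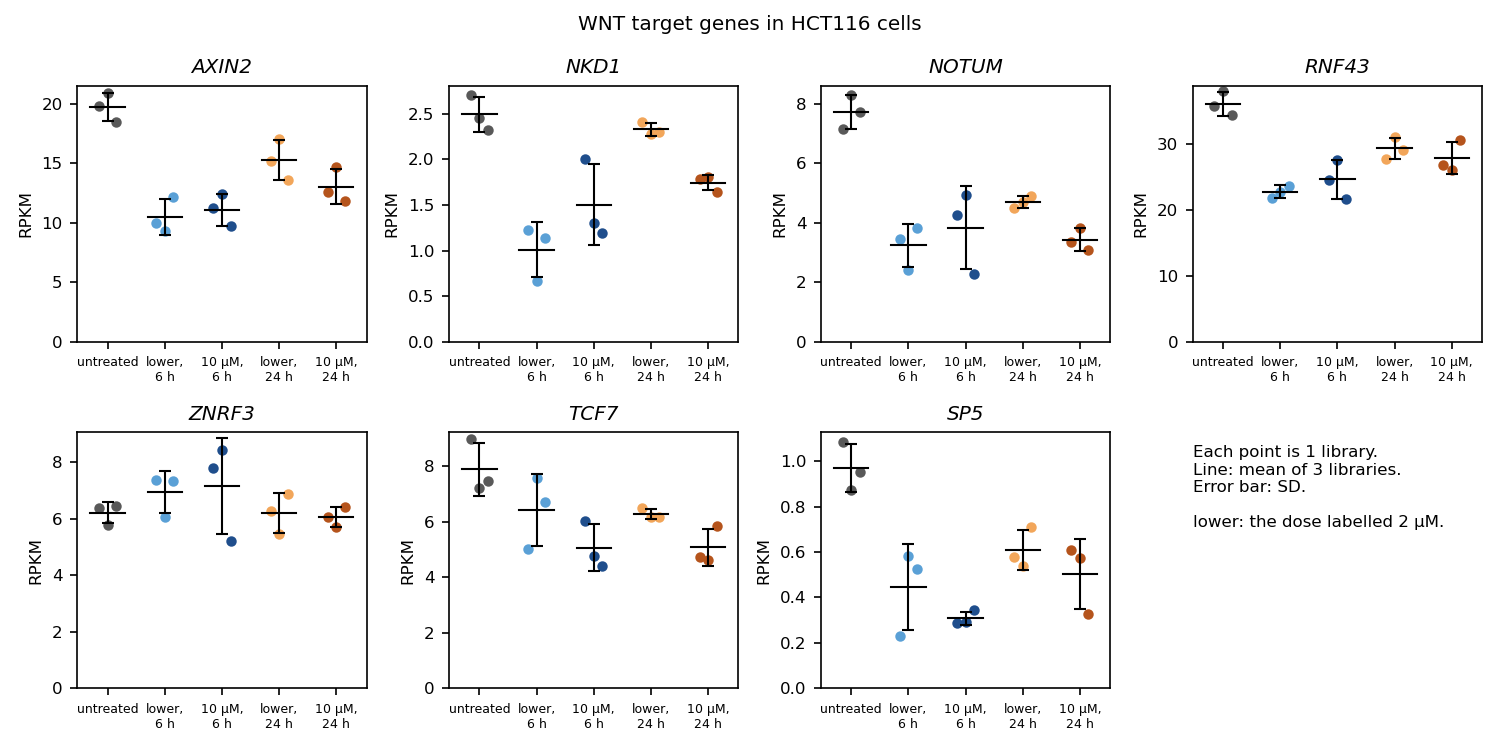
RPKM of the 7 measured members in the 15 HCT116 libraries, 1 point per library, with the mean and SD of each group of 3 as line and bar. AXIN2, NOTUM and RNF43 are below the untreated libraries in all 12 treated ones, whereas ZNRF3 overlaps them in every group.

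Of the transcription factors, TCF7 (chr5:134114711-134151865, plus strand), the gene of TCF1, a DNA-binding partner of β-catenin, measured 8.98, 7.22 and 7.45 RPKM in untreated HCT116 libraries. Libraries treated for 6 h had 5.01, 7.58 and 6.70 RPKM at the lower dose and 6.01, 4.78 and 4.42 at 10 μM. Libraries treated for 24 h had 6.50, 6.18 and 6.17 RPKM at the lower dose and 4.75, 4.64 and 5.85 at 10 μM. The lower dose at 6 h overlapped the untreated libraries and was not called, at -0.29 (SE 0.145, adjusted p = 0.131). It passed the threshold there without the treated replicate 2 (-0.41, adjusted p = 0.0384) and with an equal sum (-0.60, adjusted p = 0.0016). At 10 μM the difference was -0.59 both at 6 h (SE 0.147, adjusted p = 0.0213) and at 24 h (SE 0.112, adjusted p = 0.00341). At the lower dose and 24 h it was -0.30 (SE 0.0906, adjusted p = 0.0376). That last call was lost under 9 of 16 alternatives, among them the omission of untreated replicate 1 (adjusted p = 0.116) or 3 (adjusted p = 0.0674) or of any treated library. The call at 10 μM and 6 h was lost when any single untreated library or its replicate 2 was left out (adjusted p from 0.0534 to 0.0942).

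SP5 encodes a zinc-finger repressor and is a direct target of β-catenin in many cell types (chr2:170715351-170718078, plus strand). It measured 1.08, 0.874 and 0.952 RPKM in untreated HCT116 libraries. At 6 h it measured 0.229, 0.582 and 0.524 RPKM at the lower dose and 0.290, 0.292 and 0.343 at 10 μM. By 24 h the level was 0.580, 0.537 and 0.709 RPKM at the lower dose and 0.609, 0.574 and 0.327 at 10 μM. All treated libraries were under all untreated ones, at levels near the pseudocount. The difference was -0.66 (SE 0.195, adjusted p = 0.0208) and -0.86 (SE 0.154, adjusted p = 0.00664) at 6 h. The 24 h difference was -0.41 (SE 0.147, adjusted p = 0.0672), not called, and -0.56 (SE 0.175, adjusted p = 0.0325). The call at the lower dose and 6 h was lost without its replicate 1 (adjusted p = 0.0506) or the untreated replicate 1 (adjusted p = 0.0765) or 3 (adjusted p = 0.0531). The call at 10 μM and 24 h was lost when any single untreated library or its replicate 3 was left out (adjusted p from 0.0621 to 0.114).

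The promoter of SP5 is shown because it was the only member promoter of those available that held the TCF/LEF core motif. RefSeq promoters of 300 bases (250 before the start and 50 after it, GRCh38.p14) were found for 4 of the 10 members, namely SP5 and LEF1 with 1 each and RNF43 and TCF7 with 2 each. They were searched on both strands for the TCF/LEF core CTTTGAT and the E box CACGTG, the motif bound by MYC with MAX. CTTTGAT was in 2.62% of the 35116 promoters of the table and CACGTG in 7.26%. The SP5 promoter held CTTTGAT once, beginning 109 bases before the start. The related letters CTTTGAA, searched after this promoter had been seen and present in 4.43% of all promoters, lay on the other strand as TTCAAAG at 148 and 84 bases before the start. None of the 3 motifs was in the other 5 member promoters, and CACGTG was in none of the 6. The 250 bases before the start at chr2:170715087-170715336, plus strand, read as follows, with these 3 matches in capitals.
SP5 promoter: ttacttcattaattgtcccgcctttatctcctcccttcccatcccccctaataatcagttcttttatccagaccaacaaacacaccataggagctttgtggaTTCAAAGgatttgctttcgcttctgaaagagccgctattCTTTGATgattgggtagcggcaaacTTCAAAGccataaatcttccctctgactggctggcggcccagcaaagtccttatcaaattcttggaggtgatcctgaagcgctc

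The 6 h and 24 h groups of the lower dose differed in 4 members. Between 6 and 24 h, AXIN2 rose by 0.52 (SE 0.117, adjusted p = 0.00763), NKD1 by 0.93 (SE 0.171, adjusted p = 0.00339), RNF43 by 0.36 (SE 0.073, adjusted p = 0.00503) and NOTUM by 0.49 (SE 0.149, adjusted p = 0.0269). These were 4 of 7 members called higher, beside 30.9% of all 14775 genes. The median over all genes was 0.16 and that of the 7 members 0.36. With median-ratio scaling, which brought the median of all genes to -0.019, AXIN2 and NKD1 were called higher, RNF43 (0.17, adjusted p = 0.104) and NOTUM (0.32, adjusted p = 0.0974) were not, and ZNRF3 was called lower (-0.33, adjusted p = 0.0358). The NOTUM call was also lost without the 6 h replicate 2 (0.32, adjusted p = 0.0502) or when any single 24 h library was left out (adjusted p from 0.0575 to 0.0783). TCF7 differed by -0.013 (95% confidence interval -0.32 to 0.29), SP5 by 0.25 (-0.22 to 0.71) and ZNRF3 by -0.15 (-0.41 to 0.11), and these were not called.

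At 10 μM, 0 of 6 members tested were called between 24 and 6 h, beside 7.86% of 14920 genes. The count was 0 at an unadjusted p under 0.05, beside 4241 of the 14920 genes, and 0 without the trend in the limma fit. The differences ran from -0.20 for ZNRF3 (95% confidence interval -0.61 to 0.21) to 0.22 for AXIN2 (-0.088 to 0.54). The interval for NOTUM was -0.65 to 0.47. Without the third library at 10 μM and 6 h, ZNRF3 was called lower at 24 h (-0.40, adjusted p = 0.0243) and NOTUM differed by -0.38 (adjusted p = 0.0699). Whether the time difference itself depended on the dose was not tested.

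Between the 2 doses, no member was called. At 6 h, 0 of 6 members were called, 0 at an unadjusted p under 0.05 and 0 without the trend, beside 0% of 14601 genes. Over all genes, 1242 had an unadjusted p under 0.05 and 137 were called in the fit of all groups. The difference, 10 μM minus the lower dose, was 0.41 for NKD1 (95% confidence interval -0.12 to 0.93) and -0.31 for TCF7 (-0.73 to 0.11), and the other 4 lay between. At 24 h, 0 of 7 were called and 0 without the trend, beside 0.18% of 15039 genes. At an unadjusted p under 0.05 there were 3 of the 7 members, beside 1739 of the 15039 genes. Those 3 members were lower at 10 μM, and none of the 3 was called. NOTUM differed by -0.40 (-0.64 to -0.17, adjusted p = 0.239), NKD1 by -0.33 (-0.59 to -0.076, adjusted p = 0.325) and TCF7 by -0.29 (-0.52 to -0.06, adjusted p = 0.337). The intervals are not adjusted for the number of genes.

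In Ramos cells, LEF1, RNF43 and ZNRF3 were above 1 RPKM in every library and AXIN2 was low. LEF1, a DNA-binding partner of β-catenin that is also used in lymphocytes (chr4:108047545-108168956, minus strand), measured 24.9, 26.9 and 23.6 RPKM untreated. At 6 h it measured 19.1, 19.7 and 21.2 RPKM at 0.5 μM and 21.9, 21.1 and 22.8 at 2.5 μM. At 24 h it measured 23.9, 23.5 and 23.8 RPKM at 0.5 μM and 20.6, 24.9 and 23.9 at 2.5 μM. Both 6 h groups lay below the untreated libraries and both 24 h groups overlapped them. LEF1 fell by 0.32 at 0.5 μM and 6 h (SE 0.068, adjusted p = 0.00997). At 2.5 μM and 6 h the difference of -0.19 was at the threshold (SE 0.0624, adjusted p = 0.0505) and passed it under 5 of 16 alternatives, among them the omission of untreated replicate 3 (adjusted p = 0.0274). With an equal sum the call at 0.5 μM was lost (-0.23, adjusted p = 0.071).

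RNF43 measured 9.66 to 14.2 RPKM over the 15 Ramos libraries and ZNRF3 1.67 to 2.88, and neither was called against untreated cells in any of the 4 comparisons. AXIN2 measured 0.210 to 0.836 RPKM, passed the filter only at 0.5 μM and 24 h and was not called there. At 0.5 μM and 6 h, LEF1 was the 1 of 3 members called, beside 23.6% of 13614 genes. At 2.5 μM and 6 h, 0 of 3 were called, beside 27.9% of 13595 genes. LEF1 was at an unadjusted p under 0.05 there, as were 5408 of the 13595 genes. At 24 h, 0 of 4 were called at 0.5 μM, beside 0.0146% of 13674 genes. At an unadjusted p under 0.05 there were 0 members, beside 763 of these genes. At 2.5 μM and 24 h, 0 of 3 were called, beside 4.61% of 13607 genes. Without the trend in the fit the count was also 0 in each of these 3 comparisons. RNF43 at 2.5 μM and 24 h, with 14.2, 12.8 and 13.3 RPKM against 10.6, 11.5 and 12.7 untreated, did not overlap the untreated libraries. Its difference of 0.21 (SE 0.0801) had an adjusted p of 0.176 and an unadjusted p under 0.05, as had 2916 of the 13607 genes. RNF43 was called there with an equal sum (0.41, adjusted p = 0.0118).

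The responses of the lines were compared by an interaction, the difference in HCT116 cells at the lower dose minus that in Ramos cells at 2.5 μM. At 6 h, 4 of 7 members were called lower (AXIN2, NKD1, RNF43 and NOTUM), beside 28.4% of 15562 genes. At 24 h, 2 of 7 were called lower (RNF43 and NOTUM), beside 9.51% of 15714 genes. Only RNF43 and ZNRF3 of the 7 were above 1 RPKM in every library of both lines, so these counts are not read as a result. Both overlap other genes on the same strand, SUPT4H1 among them for RNF43, whose reads can enter their values. RNF43 was abundant in both lines, and its difference between them was -0.70 at 6 h (SE 0.0967, adjusted p = 0.00022) and -0.50 at 24 h (SE 0.0994, adjusted p = 0.00799). ZNRF3, also measured in both, differed by 0.072 (SE 0.132, adjusted p = 0.695) and -0.13 (SE 0.131, adjusted p = 0.524). NKD1, NOTUM and TCF7 were near 0 in Ramos cells and LEF1 in HCT116 cells, so their interaction is the change in the other line alone. AXIN2 in Ramos cells lay below the pseudocount in 11 of 15 libraries, and its value at 6 h, -0.70 (SE 0.178, adjusted p = 0.00901), was not called with a pseudocount of 0.1 (-0.55, adjusted p = 0.14). The line, the transfection reagent and the exact dose cannot be told apart in this comparison.

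CTNNB1 itself fell in treated HCT116 cells. It measured 218, 208 and 224 RPKM untreated, 153, 127 and 139 at the lower dose for 6 h, and 134, 128 and 90.4 at 10 μM for 6 h. At 24 h it measured 175, 177 and 173 RPKM at the lower dose and 177, 185 and 162 at 10 μM. Every treated library was below the untreated ones. The difference was -0.63 (SE 0.0763, adjusted p = 0.000245), -0.90 (SE 0.157, adjusted p = 0.00611), -0.31 (SE 0.0435, adjusted p = 0.00186) and -0.32 (SE 0.0602, adjusted p = 0.00343), and both 24 h calls were lost in the fit of all groups (adjusted p = 0.134 and 0.0873). The part of CTNNB1 in the values of the target genes was not tested.

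TCF7L2, which encodes TCF4, a TCF partner of β-catenin in intestinal epithelium, was not called in any of these comparisons, with means of 20.7 ± 1.33 RPKM untreated and 20.5 to 24.7 treated. With an equal sum it was called lower at the lower dose for 6 h (-0.35, adjusted p = 0.0181). MYC, a WNT target in colon carcinoma, measured 118 ± 4.92 RPKM untreated. It was 156 ± 2.87 at the lower dose for 6 h (0.40, SE 0.0595, adjusted p = 0.000646, 0.067 with an equal sum and then not called). At 10 μM for 6 h it was 153 ± 30.3, which was not called (0.35, adjusted p = 0.128), and 0.53 without the third library (adjusted p = 0.000232), but -0.14 with an equal sum (adjusted p = 0.653). At 24 h it was 95.7 ± 2.76 and 95.9 ± 2.34, lower by -0.30 at both doses (adjusted p = 0.00283 and 0.00164), and these calls were lost in the fit of all groups (adjusted p = 0.111 and 0.0786).

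**Figure D4:**
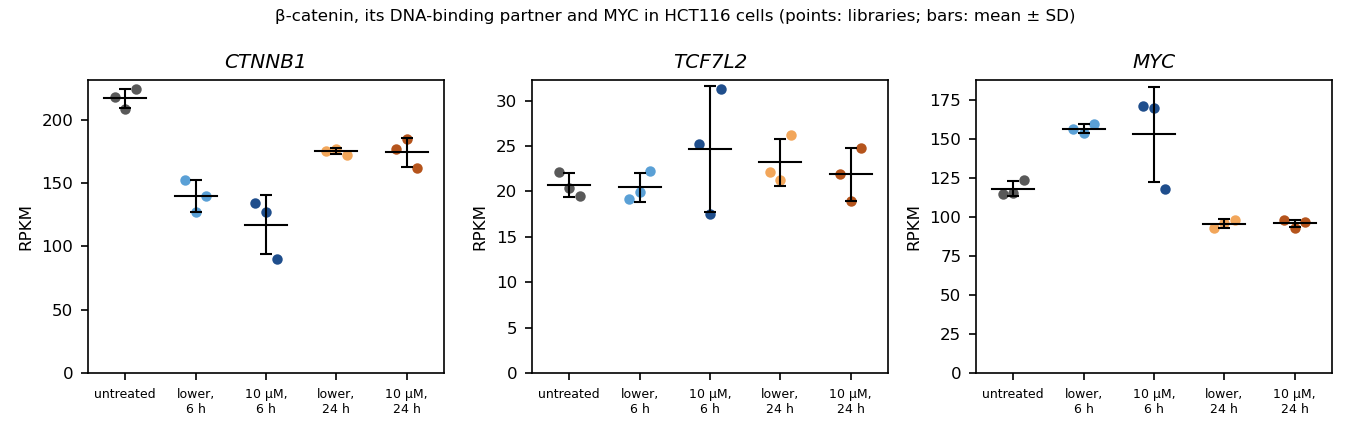
RPKM of CTNNB1, TCF7L2 and MYC in the 15 HCT116 libraries, 1 point per library, with the mean and SD of each group of 3. CTNNB1 lies below the untreated libraries in all treated groups, TCF7L2 overlaps them, and MYC is above them at the lower dose for 6 h and below them at 24 h.

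The rest of the pathway was described from lists of 104 other WNT genes. In the order of the lower dose and 10 μM at 6 h and then at 24 h, the counts stand beside 31.8, 21.2, 10.8 and 15.7% of all genes called lower and 15.5, 8.84, 16.6 and 19.5% called higher. Among 18 receptors and co-receptors, of which 14 passed the filter, 9 fell and 0 rose at the lower dose for 6 h (6 to 12 fell under the other scalings). At 10 μM for 6 h, 4 fell and 0 rose. There 9 fell with an equal sum, 1 rose with median-ratio scaling, and 1 fell without the untreated replicate 1 or 2 and 2 without the untreated replicate 3. At 24 h, 0 were called at either dose, and at most 1 under any alternative. The genes named in the next sentences were chosen after their values were seen. The Frizzled receptor FZD7 measured 5.21, 5.21 and 4.87 RPKM untreated and 2.01, 2.18 and 2.63 at the lower dose for 6 h, a difference of -1.02 (SE 0.116, adjusted p = 0.000187). LGR4, a receptor for R-spondins, measured 4.17, 4.44 and 3.55 RPKM untreated and 2.06, 1.70 and 2.27, a difference of -0.86 (SE 0.132, adjusted p = 0.000795). FZD2 and FZD4 differed by -1.07 (adjusted p = 0.00354) and -0.84 (adjusted p = 0.000334), and these 4 receptors were the 4 called at 10 μM for 6 h.

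Of 16 secreted regulators and secretion factors, 3 passed the filter. DKK1, a secreted antagonist of LRP co-receptors and itself a WNT target, named after its values were seen, was the 1 gene called, higher at both doses at 6 h. It measured 68.8, 61.7 and 60.3 RPKM untreated, 186, 126 and 145 at the lower dose and 149, 204 and 142 at 10 μM. The difference was 1.24 (SE 0.124, adjusted p = 0.00011) and 1.35 (SE 0.152, adjusted p = 0.00151). With an equal sum, 1 of the 3 genes was called higher and 2 lower at the lower dose for 6 h. At 10 μM for 6 h, 2 were called higher without the third treated library. At 24 h DKK1 measured 64.1 to 79.4 RPKM over both doses and 0 of the 3 genes were called. Without the treated replicate 2 at 10 μM and 24 h, 1 was called higher. DKK1 therefore moved opposite to AXIN2, NKD1, NOTUM and RNF43 at 6 h.

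Among the 19 WNT ligands, 8 to 10 passed the filter. WNT9A, WNT11 and WNT7B are named after their values were seen. At 6 h, WNT9A and WNT16 rose at the lower dose and WNT9A at 10 μM. WNT11 was called lower at both doses, but it passed the filter through the untreated libraries (0.938 RPKM against 0.340 and 0.254), so its call is not read as a result. At 24 h, 3 rose and 0 fell at each dose, WNT9A and WNT16 at both, WNT7B at the lower dose and WNT10B at 10 μM, beside 16.6 and 19.5% of all genes. With an equal sum, 1 rose at the lower dose and 2 at 10 μM. WNT16 measured 25.3 ± 0.223 RPKM untreated and 37.7 ± 1.42 at 10 μM for 24 h, a difference of 0.57 (SE 0.0502, adjusted p = 6.77e-05). WNT10B differed there by 0.43 (SE 0.0891, adjusted p = 0.00527), which was not called with an equal sum (0.26, adjusted p = 0.0947). With an equal sum the WNT16 difference at the lower dose and 6 h went from 0.32 to -0.012.

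All 17 genes of the destruction complex and cytoplasmic signaling passed the filter. In the same order, 7, 5, 4 and 6 fell and 1, 1, 2 and 2 rose, beside 31.8, 21.2, 10.8 and 15.7% of all genes lower. In place of the 7, 4 fell with median-ratio scaling or without the untreated replicate 3 and 14 genes fell with an equal sum. In place of the 5, 1 fell without the untreated replicate 1 or 3, 3 without the untreated replicate 2, 8 without the third treated library and 10 with an equal sum. In place of the 4, 1 fell in the fit of all groups or without the untreated replicate 1, 2 without the treated replicate 1 and 8 with an equal sum or median-ratio scaling. The 6 ranged from 4 to 9. TNKS2 and TNKS, the tankyrases that mark Axin for degradation, differed by -0.44 (SE 0.0753, adjusted p = 0.00195) and -0.37 (SE 0.0723, adjusted p = 0.00391) at 10 μM for 24 h. At 6 h their differences were -0.68 and -0.69 at the lower dose and -0.74 and -0.68 at 10 μM, all called. The TNKS call at 10 μM was lost without the untreated replicate 1 (adjusted p = 0.0582) or 3 (adjusted p = 0.0553). CSNK1D, a casein kinase, differed by 0.34 (SE 0.111, adjusted p = 0.0387) at 10 μM for 24 h and by 0.16 (adjusted p = 0.35) with an equal sum. Its call was lost when any single untreated library was left out (adjusted p from 0.0501 to 0.119).

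Of 14 nuclear partners, CTNNB1 and TCF7L2 included, 12 passed the filter, and 6, 5, 4 and 4 fell and 1, 0, 1 and 0 rose in the same order, beside 31.8, 21.2, 10.8 and 15.7% of all genes lower. In place of the 6, 4 fell with median-ratio scaling and 11 with an equal sum. For the lower dose at 24 h, 0 fell in the fit of all groups and 2 without the untreated replicate 3, and at 10 μM for 24 h, 8 fell with an equal sum. In place of the 5, 3 fell without the untreated replicate 2 or 3. The genes with the largest called differences at 10 μM for 24 h were TLE3, a Groucho-type corepressor, at -0.53 (SE 0.0666, adjusted p = 0.000404), CTNNBIP1, an inhibitor of β-catenin binding to TCF, at -0.36 (SE 0.0713, adjusted p = 0.00402), and PYGO2, a coactivator, at -0.36 (SE 0.0595, adjusted p = 0.00166). BCL9L, a coactivator named after its values were seen, was the 1 called higher at the lower dose, at 6 h (0.66, adjusted p = 0.0108) and at 24 h (0.44, adjusted p = 0.0386). The 6 h call was lost with an equal sum or without a filter. The 24 h call was lost under 9 of 16 alternatives, among them median-ratio scaling, an equal sum, the fit of all groups and omission of the untreated replicate 2 or 3 or the treated replicate 1 or 3.

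Of 20 other WNT target genes, MYC included, 14 passed the filter, and 6, 3, 7 and 8 fell and 1, 1, 1 and 0 rose, beside 31.8, 21.2, 10.8 and 15.7% of all genes lower. With median-ratio scaling 4 fell and 5 rose at the lower dose for 6 h. For 10 μM at 6 h, 7 fell with an equal sum and 6 in the fit of all groups, and at the lower dose for 24 h, 3 fell in the fit of all groups. SOX4, a transcription factor, measured 60.5, 58.6 and 63.7 RPKM untreated and 30.0 to 39.7 over the 12 treated libraries, with differences of -0.76, -0.94, -0.71 and -0.86 (adjusted p = 3.41e-05, 0.000993, 0.000424 and 1.13e-05). SOX9, a crypt transcription factor, went from 18.8 ± 2.01 to 11.9 ± 1.05 RPKM at 10 μM for 24 h (-0.64, SE 0.0904, adjusted p = 0.000727). ETS2 went from 24.6 ± 1.09 to 16.0 ± 0.776 RPKM (-0.60, SE 0.0606, adjusted p = 0.000134). At 6 h neither SOX9 (adjusted p = 0.326 and 0.124) nor ETS2 (adjusted p = 0.221 and 0.955) was called, though with an equal sum SOX9 was lower at both doses (-0.46 and -0.78, adjusted p = 0.00551 and 0.0119). EPHB3, an ephrin receptor named after its values were seen, fell by 1.14 at the lower dose for 6 h (adjusted p = 0.000194) and was called higher by 0.42 at 24 h (adjusted p = 0.0093), a call lost with an equal sum and in the fit of all groups.

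Reads of overlapping genes can enter some of these values. In GENCODE release 29, AXIN2, NKD1, RNF43, ZNRF3, TCF7, LEF1 and LGR5 (chr12:71439770-71586310, plus strand) each overlap at least 1 other annotated gene, and ASCL2 (chr11:2268495-2270952, minus strand), NOTUM and SP5 overlap none. The library kit keeps the strand, but whether the counting used it is not stated in the sources used here. The strand would not separate genes on the same strand, which AXIN2, NKD1, RNF43, ZNRF3 and LGR5 each overlap. For RNF43 these include SUPT4H1.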

How the data were processed

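RNA was sequenced from 30 libraries made, per the labels, with a stranded total RNA kit after rRNA removal. The authors deposited RPKM for 57992 genes, and RSEM is named in the submitters' processing notes. The aligner, genome build, annotation and filters are not given in the sources used here. RPKM values are fractional, whole reads could not be recovered, and depth is unknown, so no count model was used and precision rests on 3 libraries per group. GENCODE release 29 (GRCh38) gave the symbol and position for 57388 of the Ensembl identifiers.

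Log2(RPKM + 0.5) was fitted with limma 3.58.1 in R 4.3.3 (lmFit, eBayes with trend), using only the libraries of the groups compared and keeping genes whose mean over them reached 0.5 RPKM. P-values were adjusted by Benjamini-Hochberg over all genes tested, with a threshold of 0.05. Exact two-sided permutation tests were run for single members. The fit was tested on simulated data.

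All 10 members were named throughout. From the other lists, up to 3 genes each were named by the size of the called difference at 10 μM and 24 h in HCT116 cells with a mean RPKM of at least 2, plus CTNNB1, TCF7L2 and MYC. Other genes named were chosen after their values were seen. The members and lists were chosen with earlier results of these data known. Alternatives were pseudocounts of 0.1 and 1, no filter or a mean of at least 2, 3 other scalings (median ratio, quantile, equal sum), a block for replicate number, 1 fit per line over its groups (over all 10 groups for the interaction), no trend, and omission of each library.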

Additional observations from a re-analysis of the deposited data

Results flagged for a closer look

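At the lower dose in HCT116 cells, the 6 h and 24 h groups, compared directly, differed in 4 members. Untreated libraries carry no time, so time in culture and time of exposure to Omomyc cannot be told apart here. AXIN2 was higher at 24 h by 0.52, NKD1 by 0.93, RNF43 by 0.36 and NOTUM by 0.49 on the scale of log2(RPKM + 0.5). Of all 14775 genes, 30.9% were called higher in this comparison. With median-ratio scaling, RNF43 (0.17, adjusted p = 0.104) and NOTUM (0.32, adjusted p = 0.0974) were not called. The NOTUM call was also lost when any single 24 h library was left out (adjusted p from 0.0575 to 0.0783).

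RNF43, abundant in both lines, differed in its response between HCT116 and Ramos cells in the interaction test, by -0.70 at 6 h and -0.50 at 24 h. Reads of SUPT4H1, which overlaps RNF43 on the same strand, can enter these values. The interaction test also called NKD1 (-1.08) and NOTUM (-1.13) at 6 h and NOTUM (-0.66) at 24 h, but both genes were near 0 in Ramos cells and passed the filter only through HCT116 cells, so these values show the change in HCT116 cells alone. AXIN2 (-0.70 at 6 h) was low in Ramos cells, and its call was lost with a pseudocount of 0.1 (-0.55, adjusted p = 0.14).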

How the results depend on the processing

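Over the 39 called differences of single members, 652 alternatives were computed, of which 595 kept the call, 57 lost it and 0 turned the direction. Of 821 alternatives of the 49 differences not called, 20 passed the threshold and 42 turned the direction without a call. The cause of these changes was not tested, except that a mean RPKM of at least 2 left out some members. These were SP5 throughout, NKD1 where a 6 h group or Ramos cells were compared, and AXIN2 in Ramos cells (0.5 μM, 24 h).

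The number of members called was 3 in place of 5 with a mean of at least 2 (lower dose, 6 h), 3 in place of 6 without a filter (10 μM, 6 h), and 2 without a filter and 0 in the fit of all groups in place of 4 (lower dose, 24 h). In Ramos cells it was 0 in place of 1 with an equal sum (0.5 μM, 6 h), 1 in place of 0 with quantile normalization, all groups, median-ratio scaling or the stricter filter (2.5 μM, 6 h), and 1 in place of 0 with an equal sum (2.5 μM, 24 h). The interaction at 24 h called 4 with an equal sum and 1 with all groups, in place of 2. Leaving out single libraries gave 4 to 6 (lower dose, 6 h), 2 to 7 (10 μM, 6 h), 3 to 4 (lower dose, 24 h) and 4 to 6 members (10 μM, 24 h). It gave 3 to 4 and 0 to 1 between times at the lower and the higher dose, 0 to 1 in Ramos cells (2.5 μM, 6 h), and 7 to 8 between the lines. Against untreated HCT116 cells, the genes called over the whole table then ranged from 5238 to 6793, 1813 to 7565, 2167 to 3665 and 3725 to 4780, in the same order.

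With an equal sum, ZNRF3 turned to -0.17 and -0.29 at 6 h, 0.019 and 0.081 between times, -0.12 between doses at 6 h and -0.35 in the interaction at 6 h. TCF7 turned to 0.16 and NOTUM to 0.17 between times, AXIN2 to -0.066 and RNF43 to -0.044 between doses at 6 h, RNF43 to 0.007 (0.5 μM, 24 h) and LEF1 to 0.083 (2.5 μM, 24 h) in Ramos cells, and LEF1 to -0.051 in the interaction at 24 h. TCF7 turned to -0.15 with median-ratio scaling and -0.17 with quantile normalization (10 μM, between times), and ZNRF3 to 0.02 with quantile normalization (between doses, 24 h). In the interactions, TCF7 turned to 0.043 and 0.012 at 6 h and NKD1 to 0.12 and 0.027 at 24 h, with a pseudocount of 0.1 and quantile normalization. Without single libraries, ZNRF3 ran from -0.077 to 0.076 and from -0.082 to 0.0045 (lower dose and 10 μM, 24 h), -0.10 to 0.22 and -0.11 to 0.043 (between doses, 6 and 24 h) and -0.17 to 0.044 (Ramos, 0.5 μM, 24 h). TCF7 ran from -0.17 to 0.11 and -0.092 to 0.12 and NOTUM from -0.38 to 0.11 between times, NOTUM from -0.016 to 0.47 between doses at 6 h, RNF43 from -0.018 to 0.11 (2.5 μM, 6 h) and -0.12 to 0.0058 (0.5 μM, 24 h) in Ramos cells, and NKD1 from -0.074 to 0.018 in the interaction at 24 h.

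Of all genes, scaling to an equal sum took the share of calls that were higher from 32.7 to 6.85% and from 29.4 to 4.37% at 6 h and from 60.6 to 23.1% and from 55.3 to 20.5% at 24 h (lower dose, then 10 μM). Median-ratio scaling gave 53.7, 47.5, 45.1 and 48.3%. Gene counts moved from 4439 to 7180 with an equal sum (10 μM, 6 h), from 4071 to 2282 without a filter and 1113 with all groups (lower dose, 24 h), and from 5220 to 2535 with all groups (10 μM, 24 h).

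Replicate numbers were not used as pairs in the main fit, since in no comparison did all 3 same-numbered pairs deviate together with a correlation over 0.1. With 3 libraries per group, this check cannot exclude weaker pairing. With the replicate number as a block, 5, 6, 3 and 5 members were called against untreated HCT116 cells (5, 6, 4 and 6 without it), 4 and 0 between times, 0 between doses, 1, 0, 0 and 0 in Ramos cells, 7 between lines and 4 and 2 in the interactions. The block took the count of genes from 1173 to 256 (10 μM, between times), 627 to 197 (Ramos, 2.5 μM, 24 h), 2565 to 1238 (interaction, 24 h) and 0 to 2 (between doses, 6 h). Depth is unknown, so no limit of detection can be given for LGR5, ASCL2 and the other genes near 0.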
